A study of Mus musculus with 53 samples.

Results

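Hhex, Cer1, Dkk1 and Lhx1 are 4 genes known from the anterior visceral endoderm, out of 21911 protein-coding genes examined. They were taken by name, and all peaks inside each gene body and the 50 kb on either side of it (its window) were read in the CUT&RUN peak lists of 35 libraries. The windows held 549 of 1997019 peaks, and the SOX2 and GATA6 peaks among them merged into 26 regions, of 72577 in the genome. All libraries came from SGGC, a mouse embryonic stem cell line (E14JU) in which SOX2 is fused to GFP and GATA6 to mCherry. The populations were cells in 2iLIF (MEK inhibitor PD0325901, CHIR99021 and LIF), cells in NACL (Activin A, CHIR99021 and LIF in N2B27), cells sorted from KOSR medium as SOX2-GFP single positive (SOX2+) or as positive for both reporters (DP), and nEnd, primitive endoderm-like cells kept in RACL. SOX2 was profiled in 2 2iLIF, 2 NACL, 3 SOX2+ and 3 DP libraries, GATA6 in 3 DP and 2 nEnd libraries, and H3K27ac and H3K4me1 each in 2 libraries of 2iLIF, NACL, SOX2+ and nEnd and 1 of DP. The 7 SOX2 libraries of 2iLIF, NACL and SOX2+ are called pluripotent here, and 2iLIF and NACL are called naive media. A further H3K27ac and H3K4me1 library, both from experiment B, have titles that name DP and source names that name SOX2+; they were put in no group and are given apart. Replicates are clones B9 and B12 for 2iLIF, NACL and nEnd, except that both nEnd H3K4me1 libraries are of B9, and, for the sorted cells of clone B12, libraries lettered A, A1 and B in their titles. What the letters stand for is not stated; they are taken here to mark experiments, which is an assumption. The source name of the NACL B12 SOX2 library names IgG and gives no medium, so its group rests on its title. The DP A GATA6 title carries an unexplained suffix, sub02, so its list length, ranks and signals may not be comparable with those of the other DP libraries.

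The anterior visceral endoderm arises from the primitive endoderm after implantation and signals to the epiblast beside it, where it protects future anterior tissue from posterior-inducing signals. Hhex is a homeobox transcriptional repressor and one of the early markers of this tissue. Cer1 encodes a secreted antagonist of Nodal and BMP ligands, and Dkk1 a secreted inhibitor that binds Wnt co-receptors. Lhx1 encodes a LIM-homeodomain factor needed for head formation. SOX2 is a transcription factor of pluripotent cells and GATA6 one of the primitive endoderm. H3K4me1 marks enhancers whether active or not, and H3K27ac marks active enhancers and promoters.

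In CUT&RUN an antibody tethers micrococcal nuclease to its target and the released DNA is sequenced. Each deposited list gives a peak's position on mm10 (GRCm38) and its maximum signal, a coverage on that library's own scale. Signals were therefore compared only as ranks within a library, where rank 1 is the strongest peak. Read depth is unknown. A weaker peak from fewer bound cells and one from weaker binding in each cell cannot be told apart. The lists held 1378 to 29623 peaks for SOX2, 1391 to 32510 for GATA6, 13514 to 401853 for H3K27ac and 18627 to 130749 for H3K4me1, and within an antibody the longest and shortest lists were not of the same population. The SOX2 lists of DP cells (4859, 5320 and 1378 peaks) and their GATA6 lists (8316, 3821 and 1391) were shorter than those of all other libraries of the same antibody, so a region without a DP peak is not shown to lack binding. The nEnd libraries were checked against their label by marker genes, in both marks. Of 12 primitive endoderm genes such as Gata4, Sox17 and Pdgfra, 11 had more H3K27ac coverage and 12 more H3K4me1 coverage in every nEnd library than in every naive-medium library, against 42.6% and 23.7% of all genes. Of 8 pluripotency genes, 3 had less of each mark in nEnd, and 2 had more H3K27ac and 1 more H3K4me1; over all genes 32.9% had less H3K27ac and 16.3% less H3K4me1, so the H3K27ac count is near that of any genes. Of other cell types, 2 of 4 trophoblast genes had more H3K27ac in nEnd, 2 of 4 fibroblast genes had more and 2 less, and 1 of 3 mesendoderm genes had less. In H3K4me1, 1 of 4 trophoblast genes had more, 2 of 4 fibroblast genes had less and 1 of 3 mesendoderm genes had less.

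The sequences below are the 200 bp around the median peak maximum, on the plus strand of GRCm38, for the region of each gene with the most GATA6 libraries (at Dkk1, +33.0 rather than +22.8 kb, with the same number of GATA6 and more SOX2 libraries) and, where that is another region, those with the most SOX2 libraries. They are shown because the results turn on these places: the places with GATA6 peaks, those with SOX2 in pluripotent cells and none in DP, and a site beside Cer1 where both factors were found. The region at Dkk1 +33.0 kb, labelled GATA6 below, also had SOX2 peaks, in DP A and DP A1. Distances are from the gene's start site, positive in the direction of transcription. Capitals mark the GATA strings AGATAA and TGATAA and the SOX strings ACAATG and ACAAAG, searched on both strands; the octamer string ATGCAAAT was searched too and is in none of them. No 2 of the strings share a base here.
Dkk1 +33.0 kb, chr19:30516595-30516794, GATA6: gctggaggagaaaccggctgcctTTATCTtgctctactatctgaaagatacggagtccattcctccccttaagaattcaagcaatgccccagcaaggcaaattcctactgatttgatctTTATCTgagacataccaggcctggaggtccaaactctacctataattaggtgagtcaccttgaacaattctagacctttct
Cer1 -1.2 kb, chr4:82886204-82886403, GATA6 and SOX2: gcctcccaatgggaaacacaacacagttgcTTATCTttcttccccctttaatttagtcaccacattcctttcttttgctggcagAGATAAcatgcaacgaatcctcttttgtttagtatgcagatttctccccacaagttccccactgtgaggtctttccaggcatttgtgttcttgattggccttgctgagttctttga
Hhex -6.8 kb, chr19:37427884-37428083, GATA6: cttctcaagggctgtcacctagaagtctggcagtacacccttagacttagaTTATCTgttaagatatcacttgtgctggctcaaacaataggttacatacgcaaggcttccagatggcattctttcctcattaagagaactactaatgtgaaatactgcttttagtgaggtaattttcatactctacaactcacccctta
Lhx1 +33.4 kb, chr11:84492036-84492235, GATA6: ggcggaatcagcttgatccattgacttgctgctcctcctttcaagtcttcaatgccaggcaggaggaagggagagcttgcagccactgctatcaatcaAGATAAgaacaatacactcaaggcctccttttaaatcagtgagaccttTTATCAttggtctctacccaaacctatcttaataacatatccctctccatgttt
Hhex -33.7 kb, chr19:37401012-37401211, SOX2: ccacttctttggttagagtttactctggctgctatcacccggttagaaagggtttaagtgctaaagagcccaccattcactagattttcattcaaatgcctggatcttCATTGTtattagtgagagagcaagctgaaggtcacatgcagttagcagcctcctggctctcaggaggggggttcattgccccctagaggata
Dkk1 +44.0 kb, chr19:30505548-30505747, SOX2: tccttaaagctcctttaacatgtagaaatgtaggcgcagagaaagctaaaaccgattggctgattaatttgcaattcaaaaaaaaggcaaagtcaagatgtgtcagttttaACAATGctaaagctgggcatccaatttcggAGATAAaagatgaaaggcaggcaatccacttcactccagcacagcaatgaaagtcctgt
Dkk1 -4.3 kb, chr19:30553884-30554083, SOX2: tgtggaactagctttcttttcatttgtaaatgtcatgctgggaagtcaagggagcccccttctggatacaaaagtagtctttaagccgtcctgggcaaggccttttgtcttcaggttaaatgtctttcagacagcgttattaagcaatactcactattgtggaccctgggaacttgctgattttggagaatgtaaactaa

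The 4 GATA6 sequences each hold a GATA string: AGATAA occurs 2 times at Dkk1 +33.0 kb, 2 times at Cer1 -1.2 kb, 1 time at Hhex -6.8 kb and 1 time at Lhx1 +33.4 kb, where TGATAA occurs 1 time too. None of these 4 holds a SOX string, also not the Dkk1 and Cer1 regions, where SOX2 peaks were called. Either SOX string is in 48.9% of the 19725 regions with GATA6 in both nEnd libraries. It is in 63.8% of the 992 regions with SOX2 and GATA6 in at least 2 DP libraries each. Either GATA string is in 74.9% of the 19725 regions with GATA6 in both nEnd libraries and in 45.7% of all 72577 SOX2 and GATA6 regions, over the same 200 bp. Of the SOX2 sequences, Hhex -33.7 kb and Dkk1 +44.0 kb each hold ACAATG 1 time, Dkk1 +44.0 kb holds AGATAA 1 time as well, and Dkk1 -4.3 kb holds none of the strings. Either SOX string is in 73% of the 4902 regions with SOX2 in all 7 pluripotent libraries and in 54.1% of all regions. A match is a description of the letters, not a bound site.

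Dkk1 (ENSMUSG00000024868, chr19:30545863-30549665, minus strand) had the highest GATA6 relative coverage of the 4 genes in each of the 5 GATA6 libraries, with 50 kb on each side. The window includes the 3′ end of Prkg1 upstream of it, and the annotation places no gene over any of the Dkk1 regions named here. GATA6 peaks were called at 6 regions in both nEnd libraries, all downstream of the gene, between +22.8 and +38.9 kb. As many regions or more of this kind were found in the windows of 7.34% of all genes. The Dkk1 window also stood high within each list when the share of it covered by peaks was divided by the share of the genome covered (relative coverage, where 1 is the genome average). GATA6 relative coverage was 16.84, 23.09 and 37.40 in DP A, A1 and B, and 8.91 and 8.54 in nEnd B9 and B12. In each DP library 99.6% of genes had a lower value, and 98.6% and 98.3% did in nEnd.

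The region at +33.0 kb (chr19:30516337-30517173) had GATA6 in all 5 libraries. Its peak had rank 30 of 8316, 29 of 3821 and 30 of 1391 in DP A, A1 and B, with maximum signals of 72, 58 and 30. In nEnd it had rank 1080 of 24223 in B9 and 283 of 32510 in B12, with signals of 114 and 156. It was thus among the strongest GATA6 peaks of each DP list, and in nEnd 95.5% and 99.1% of peaks were weaker. SOX2 was called at the same place in DP A (signal 9, rank 2110 of 4859) and DP A1 (signal 16, rank 1946 of 5320), near the middle of both lists, and not in DP B, whose list is the shortest. None of the 7 pluripotent SOX2 libraries had a peak there. It was the 1 region in the 4 windows with SOX2 and GATA6 in at least 2 DP libraries each, a kind found in the windows of 6.7% of all genes. Of the 992 such regions in the genome, 26.2% had SOX2 in none of the 7 pluripotent libraries, and 33.1% had it in all 7. The count of 1 fell to 0 without SOX2 DP A and also without SOX2 DP A1.

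The other downstream regions differed in whether DP cells had them. The region at +22.8 kb (chr19:30526625-30527250) also had GATA6 in all 5 libraries, at ranks 755, 1647 and 621 in DP A, A1 and B and 6453 and 6164 in nEnd, with a SOX2 peak in DP A1 alone (rank 3219). The region at +34.9 kb had GATA6 in DP A and A1 (ranks 1320 and 1169) and in both nEnd libraries (2972 and 972). At +34.3 kb it was in DP A (rank 6772) and both nEnd libraries (5384 and 3318). The regions at +36.1 and +38.9 kb had it in the nEnd libraries and in no DP library, at ranks 1963 and 3588 and ranks 1660 and 1095 in B9 and B12. So 3 of the 6 regions had GATA6 in at least 2 DP libraries, compared with 11.2% of the 19725 regions bound in both nEnd libraries over the genome. The share with GATA6 in none of the 3 DP libraries was 2 of 6, against 79.6% over the genome. Of the 2 regions with GATA6 in all 5 libraries 1 had SOX2 in at least 2 DP libraries, as did 46.1% of the 835 such regions in the genome. The 6 regions lie side by side in 1 window and are not independent. Their nEnd peaks were stronger than 72.5% to 99.1% of their lists. The 19725 regions include peaks of any strength, and the comparison was not matched for it.

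**Figure D1:**
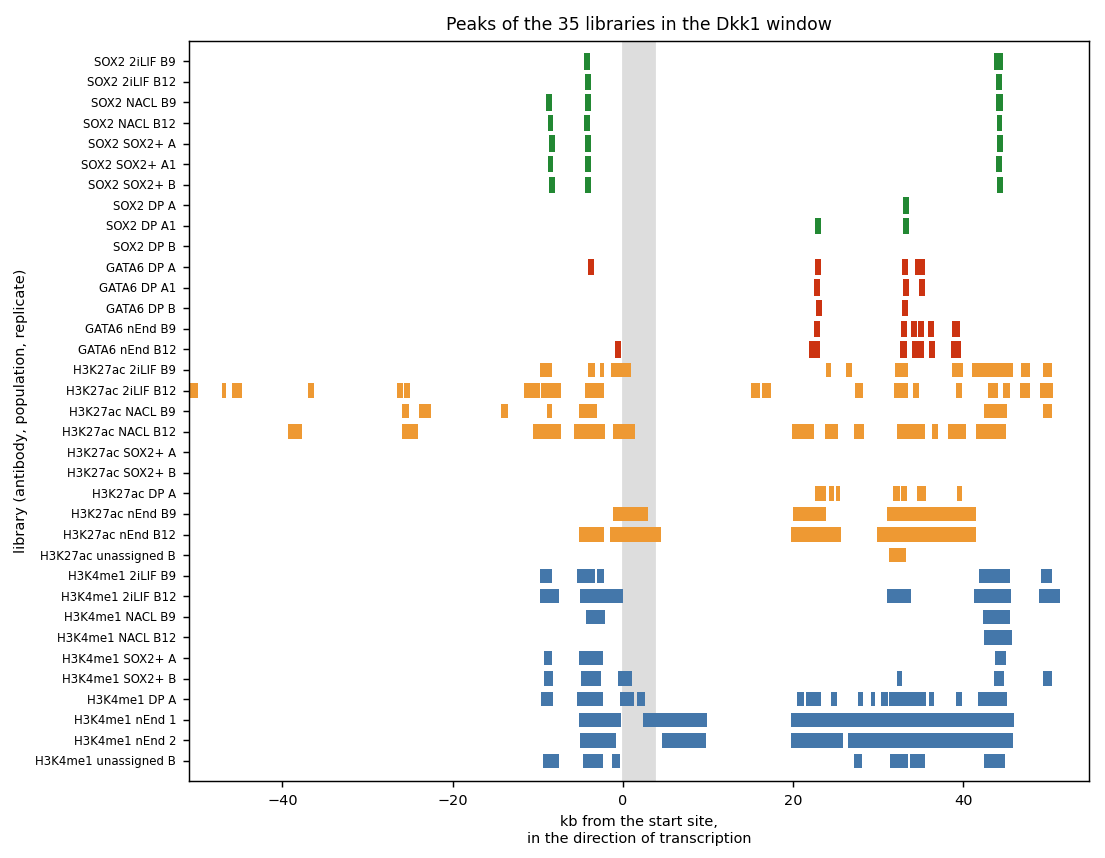
Peaks of all 35 libraries (rows: antibody, population, replicate) in the Dkk1 window, by distance in kb from the start site in the direction of transcription; the grey band is the gene and bar colours give the antibody (narrow peaks are drawn at least 0.7 kb wide). GATA6 peaks of DP and nEnd gather between +22.8 and +38.9 kb, where the pluripotent SOX2 libraries have none.

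SOX2 in pluripotent cells was found at Dkk1 too, but at other places. The regions at -4.3 kb (chr19:30553718-30554188) and +44.0 kb (chr19:30504983-30506119) had SOX2 in all 7 pluripotent libraries and in none of the 3 DP libraries. Over the genome 36.5% of the 4902 regions with SOX2 in all 7 had none in DP, so this is common among them. At -4.3 kb the peak was stronger than 49.5% of the list's peaks in 2iLIF B12, the lowest, and 88.9% in SOX2+ A, the highest. At +44.0 kb it was stronger than 92.8% and 81.8% in 2iLIF, 92.1% and 79.8% in NACL, but 3.61%, 51% and 29.5% in SOX2+ A, A1 and B. These percentages come from lists of 8203 to 29623 peaks. A region at -8.5 kb (chr19:30557948-30558696) had SOX2 in both NACL and all 3 SOX2+ libraries and in neither 2iLIF library. The 2iLIF lists held 13177 and 8203 peaks, and the shortest list with this peak, SOX2+ B, held 10513. No GATA6 peak overlapped these 3 regions, though a weak one of DP A (rank 7391 of 8316) lay next to the region at -4.3 kb. At +44.0 kb H3K27ac was in all 4 naive-medium libraries and in neither nEnd library. H3K4me1 was there in all 4 naive-medium and both nEnd libraries, as in 29% and 24.3% of regions with SOX2 in all 7. H3K27ac was in all 4 naive-medium libraries at 82.9% of such regions, and in both nEnd libraries at 22.5%. The naive-medium H3K27ac peaks covered 13.2% to 21.6% of the genome, those of nEnd B9 and B12 5.03% and 6.43%.

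Summed over the window, SOX2 relative coverage of Dkk1 was 6.67 and 7.16 in 2iLIF, 4.06 and 6.25 in NACL, 4.87, 4.66 and 6.83 in SOX2+ and 3.88, 7.91 and 0 in DP A, A1 and B. The groups overlap, and the mean of 3.93 ± 3.95 (SD, n = 3) in DP did not differ detectably from 5.79 ± 1.23 (n = 7) by a two-sided exact permutation test (difference -1.86, p = 0.35, Benjamini-Hochberg adjusted over all genes p = 0.672). Single DP libraries decided this value: without DP A1 the groups separated with DP below (-3.85), and without DP B the sign turned (0.11). The total hides a difference of place: its DP peaks are those at +33.0 and +22.8 kb, where the pluripotent libraries had none. For SOX2 in DP against pluripotent cells, 4.63% of genes had all DP libraries above and 9.1% all below, and none of the 3 genes tested (Lhx1 had no SOX2 peak) did either. For GATA6, every nEnd library lay below every DP library (8.72 ± 0.27, n = 2, against 25.78 ± 10.54, n = 3), as for 6.58% of 16798 genes. With 2 against 3 libraries no p-value below 0.2 is possible, and Dkk1 had that exact p (adjusted p = 0.386). This order depended on list length: with the 1391 strongest peaks of every library, the values were 37.55, 31.65 and 37.40 in DP and 17.12 and 67.91 in nEnd, which overlap, and the mean difference changed sign. Without DP B the difference of -17.05 was -11.24, and with 100 kb on each side it was -7.37.

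The histone marks over the downstream cluster were broad in nEnd. H3K27ac covered +31.0 to +41.5 kb in B9 and +29.8 to +41.5 kb in B12 as single peaks of 10429 and 11665 bp, and a second peak of each lay between +19.8 and +25.6 kb. H3K4me1 covered +19.8 to +46.0 kb in nEnd 1 as 1 peak of 26249 bp, while nEnd 2 had 2 peaks over nearly the same stretch. All 6 nEnd GATA6 regions thus carried both marks in both nEnd libraries. Over the genome 58.5% of such regions had H3K27ac, and 52.6% H3K4me1, in both nEnd libraries. H3K4me1 was in none of the 4 naive-medium libraries at 5 of the 6, the exception being +33.0 kb in 2iLIF B12. Over the genome 24% had H3K4me1 in both nEnd libraries and in no naive-medium library. H3K27ac was present in some naive-medium library at 5 of the 6, in peaks of 719 to 3217 bp. The region at +36.1 kb alone had it in both nEnd and in no naive-medium library, as for 7.51% over the genome.

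Over the whole Dkk1 window, nEnd B9 and B12 had an H3K27ac relative coverage of 3.54 and 3.96, 2iLIF of 1.16 and 0.94, and NACL of 0.59 and 1.67. Both nEnd libraries lay above all 4 naive-medium ones, as for 42.6% of 21264 genes, with a mean difference of 2.66 (3.75 ± 0.30, n = 2, against 1.09 ± 0.45, n = 4). H3K4me1 gave 6.14 and 11.40 in nEnd, against 2.74 and 2.14 with 2iLIF and 1.63 and 1.10 with NACL, a mean difference of 6.87, and again the groups did not overlap, as for 23.7% of 19133 genes above and 16.3% below. With 2 against 4 libraries the smallest exact permutation p is 0.133, which Dkk1 had for both marks (adjusted p = 0.177 for H3K27ac and 0.334 for H3K4me1). No gene passed the adjusted threshold of 0.05 in any of the 5 comparisons made, and for GATA6, both marks and SOX2 in DP against SOX2+ none had an unadjusted p of 0.05 or less, which these designs cannot give. The H3K27ac groups stayed apart under every alternative run, with mean differences of 1.05 to 3.35. The H3K4me1 groups overlapped when peaks were counted in place of bases (difference 1.43), and the difference was 4.24 without nEnd 2. Within all genes, 92.6% and 99% had less H3K4me1 coverage than Dkk1 in nEnd 1 and 2, and 70.8% and 73.9% less H3K27ac in nEnd B9 and B12.

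In sorted cells, most peaks of both marks over the cluster were in the DP library, whose lists are longer than those of SOX2+ (76260 against 13514 and 14722 peaks for H3K27ac, and 130749 against 58085 and 78354 for H3K4me1). H3K27ac of DP A had a peak at +32.7 to +33.4 kb with rank 425 of 76260, and its relative coverage over the window was 2.21. Neither SOX2+ H3K27ac library had any peak in the window, with lists of 13514 and 14722. The unassigned H3K27ac library of experiment B had 1 peak in the window, at +31.2 to +33.3 kb (rank 3435 of 19185), which covers part of the +33.0 kb region. H3K4me1 in DP A had its strongest peak of the window at +31.2 to +33.8 kb (rank 2122 of 130749), and relative coverage was 2.87, against 1.13 and 1.57 in SOX2+ A and B and 2.12 in the unassigned library. In DP A, 69.9% of genes had less H3K27ac and 72.9% less H3K4me1 coverage than Dkk1. With 1 DP library per mark the spread between DP libraries is unknown, and no test was made. At the Dkk1 start site, H3K27ac lay within 1 kb in both nEnd libraries, as for 36.3% of genes, in 2iLIF B9 and NACL B12, and in no sorted library; 75% of genes had it in 1 or more naive-medium libraries. H3K4me1 lay there in both nEnd libraries, as for 6.32% of genes, and in 2iLIF B12, SOX2+ B, DP A and the unassigned library.

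**Figure D2:**
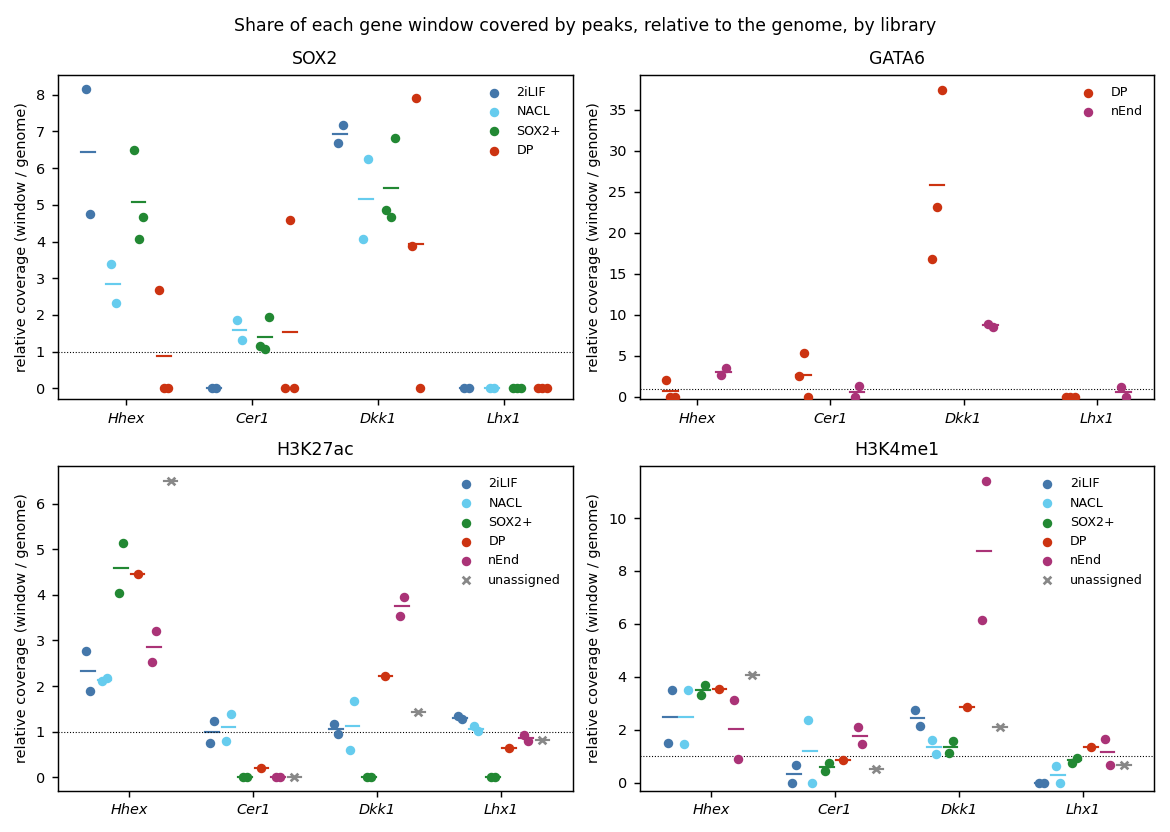
Relative coverage (share of the window covered by peaks over share of the genome, no unit) of the 4 genes, 1 panel per antibody; points are libraries, bars are means and the dotted line is 1. For Dkk1, the nEnd points of both marks sit above the naive-medium points, and the GATA6 points of DP reach 37.40.

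Cer1 (ENSMUSG00000038192, chr4:82881751-82885148, minus strand) had 1 region with both factors, at -1.2 kb (chr4:82886054-82886572), between its start site and the 3′ end of Frem1. SOX2 was called there in NACL B9 and B12 at ranks 6512 of 29623 and 3449 of 17111, and in SOX2+ A, A1 and B at ranks 9961, 8763 and 5661. Neither 2iLIF library had it, the same pattern as at Dkk1 -8.5 kb. Of 7447 regions with SOX2 in both NACL and all 3 SOX2+ libraries, 17.8% had none in 2iLIF. In DP, SOX2 was present in A1 (rank 2855 of 5320) and not in A or B. GATA6 was present in DP A (rank 2170 of 8316), DP A1 (rank 1647 of 3821) and nEnd B12 (rank 8635 of 32510), and not in DP B or nEnd B9. Only in DP A1 were both factors called there, so the region did not meet the rule of 2 DP libraries each. The remaining Cer1 regions rest on 1 library each: SOX2 at +12.8 kb in NACL B9, and GATA6 of nEnd B12 at -0.6 kb and, inside Frem1 over an annotated exon, at -28.4 kb.

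H3K27ac at Cer1 was found in naive media and hardly elsewhere. Relative coverage was 0.75 and 1.23 in 2iLIF, 0.79 and 1.39 in NACL, 0.21 in DP A, and 0 in both SOX2+, both nEnd and the unassigned library. Both nEnd libraries lay below the 4 naive-medium ones (difference -1.04, exact permutation p = 0.133, adjusted p = 0.177), as for 32.9% of genes. At the 20072 strongest peaks of each library, 3 of the 4 naive-medium libraries were at 0 too, so at equal length the groups overlapped. The naive-medium H3K27ac lists held 210904 to 401853 peaks, those of nEnd 20072 and 21394. H3K27ac touched the -1.2 kb region in 2iLIF B12, both NACL libraries and DP A. H3K4me1 touched it in nEnd 1, DP A and the unassigned library, and in no naive-medium or SOX2+ library. H3K4me1 of both nEnd libraries also covered the -28.4 kb region within Frem1 and a stretch 31.9 to 37.5 kb downstream in nEnd 1, inside which nEnd 2 had a peak. The former had H3K4me1 in DP A too and none in naive media, and the latter had it in 1 2iLIF, 1 NACL and 1 SOX2+ library. H3K4me1 relative coverage over the window was 2.09 and 1.46 in nEnd and 0, 0.69, 2.38 and 0 in naive media, which overlap (exact permutation p = 0.4, adjusted p = 0.662); without NACL B9 both nEnd libraries lay above (1.55).

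Hhex (ENSMUSG00000024986, chr19:37434810-37440731, plus strand) had SOX2 and GATA6 at separate places. SOX2 of all 7 pluripotent libraries and no DP library lay at -33.7 kb (chr19:37400923-37401520), in an intron of Kif11, which encodes a mitotic kinesin. It was above 63.4% of peaks in 2iLIF B9, the lowest, and 96.2% in NACL B9, the highest, and had rank 992 of 16819 in SOX2+ A. At +34.6 kb SOX2 was in 6 of the 7, missing in 2iLIF B12, and at +53.5 kb in 5 of the 7 and in DP A (rank 1455 of 4859). That was the 1 SOX2 peak of DP in the window. GATA6 of both nEnd libraries lay at -6.8 kb (chr19:37427749-37428203), with a DP A peak as well (rank 5373 of 8316), and at +8.8 kb (chr19:37443352-37443758), which had none in DP. These peaks were weak in nEnd B9, with 11.6% and 0.714% of peaks below them, and stronger in B12, with 72.4% and 85.6%. Within the stronger 50% of each list neither region remained in both libraries. A region of this kind lies in the windows of 61% of genes.

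SOX2 relative coverage of the Hhex window was 8.14 and 4.75 in 2iLIF, 3.38 and 2.33 in NACL, 6.48, 4.06 and 4.67 in SOX2+, and 2.69, 0 and 0 in DP A, A1 and B. DP A lies inside the pluripotent range, above NACL B12, and the other 2 DP libraries at 0. The difference of -3.93 (0.90 ± 1.55, n = 3, against 4.83 ± 1.95, n = 7) had p = 0.0333 in the exact permutation test, whose smallest p is 0.0167, and it did not pass after adjustment over 17420 genes (adjusted p = 0.217). No gene did, while 2881 had an unadjusted p of 0.05 or less. Without DP A, or without NACL B12, the groups no longer overlapped. Against the sister SOX2+ cells alone all 3 DP values were lower, as for 23.1% of 14997 genes, with 6.83% above (difference -4.17, exact p = 0.1, the smallest possible, adjusted p = 0.334). At equal list length (1378 peaks) 5 of these 6 libraries were at 0. The groups also overlapped with the stronger 50% of peaks (-2.87), with numbers of peaks (-3.15) and with 20 kb on each side (0.00). GATA6 relative coverage was 2.64 and 3.57 in nEnd and 2.02, 0 and 0 in DP. The nEnd libraries lay above, as for 45.2% of genes, so Hhex did not stand out. The difference of 2.43 was lost with equal peak numbers, where all 5 libraries were at 0, and the groups overlapped with the stronger 50% of peaks (2.02). It was 5.05 with 20 kb and 8.17 with 100 kb on each side.

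H3K27ac at Hhex was found in every population. At -33.7 kb it was present in all 4 naive-medium libraries, both SOX2+, DP A, both nEnd and the unassigned library, although no SOX2 peak was called there in DP cells. Of regions with SOX2 in all 7 pluripotent libraries, 82.9% had H3K27ac in all 4 naive-medium libraries and 22.5% had it in both nEnd libraries. At +53.5 kb H3K27ac was in all 4 naive-medium libraries, both SOX2+, DP A (rank 331 of 76260) and the unassigned library, and in neither nEnd library. The GATA6 region at -6.8 kb had no H3K27ac in any library, and H3K4me1 only in nEnd 1 and DP A. That at +8.8 kb had H3K27ac in DP A, and H3K4me1 in both nEnd libraries and DP A and in no naive-medium or SOX2+ library. The start site had H3K27ac within 1 kb in all 4 naive-medium libraries (45% of genes), DP A and nEnd B12. Over the window, H3K27ac relative coverage was 2.77, 1.88, 2.11 and 2.17 in naive media and 2.52 and 3.21 in nEnd. These overlap (exact permutation p = 0.267, adjusted p = 0.331), and the difference of 0.63 moved both ways: it was -0.41 at equal peak numbers and -2.22 with the stronger 50% of peaks, but 3.25 with numbers of peaks and 1.67 with 100 kb on each side. Without nEnd B9 or 2iLIF B9 (0.98 and 0.81) the groups separated, nEnd above. SOX2+ gave 4.04 and 5.14, DP A 4.46 and the unassigned library 6.51. H3K4me1 gave 1.51 and 3.49 in 2iLIF, 1.48 and 3.52 in NACL, while nEnd 1 and 2 had 3.13 and 0.91, with no separation (exact permutation p = 0.533, adjusted p = 0.798), though without nEnd 1 the remaining nEnd library lay below all 4 (-1.59). With 20 or 100 kb on each side both nEnd libraries lay above (2.86 and 2.36).

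Lhx1 (ENSMUSG00000018698, chr11:84518284-84525535, minus strand) had 1 transcription factor peak in its window in any of the 15 SOX2 and GATA6 libraries. It was a GATA6 peak of nEnd B9 at +33.4 kb (chr11:84491960-84492488), in an intron of Aatf, stronger than 26.7% of that list. No SOX2 peak was called in any library, so the gene could not be tested for SOX2. Around the single GATA6 peak, H3K4me1 was called in both nEnd libraries, from +31.5 to +33.9 and +31.8 to +33.9 kb, and in no other H3K4me1 library. H3K27ac was there in 1 2iLIF and 1 NACL library. The H3K4me1 relative coverage of the window was 1.66 and 0.66 in nEnd, 0 in both 2iLIF libraries, and 0.62 and 0 in NACL. Both nEnd libraries lay above all of these (1.16 ± 0.71, n = 2, against 0.15 ± 0.31, n = 4, exact permutation p = 0.133, adjusted p = 0.334), nEnd 2 only just, as for 23.7% of genes. The groups overlapped with 20 kb on each side (1.12) and with the stronger 50% of peaks (0.95), and without nEnd 1 the difference was 0.50. Near the start site the mark was in KOSR cells: H3K4me1 lay within 1 kb in SOX2+ A and B, DP A and the unassigned library, and in no naive-medium or nEnd library. Of all genes 31.5% had it in both SOX2+ libraries, and 9.07% had it in both SOX2+ libraries and in none of the 4 naive-medium and 2 nEnd libraries. The peaks were weak, with 3.64%, 28% and 35.2% of peaks below them in SOX2+ A, SOX2+ B and DP A, whose lists (58085, 78354 and 130749 peaks) are longer than all others of the mark apart from the unassigned one.

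H3K27ac at Lhx1 did not reach the start site in any library. Relative coverage was 1.34, 1.27, 1.12 and 1.01 in naive media, 0.92 and 0.80 in nEnd, 0.63 in DP A, 0 in both SOX2+ libraries and 0.82 in the unassigned one. The nEnd libraries lay below those of naive media by 0.33 on average (exact permutation p = 0.133, adjusted p = 0.177), as for 32.9% of genes. The groups overlapped with equal peak numbers (0.02) and with numbers of peaks (-0.06), and with 20 kb on each side nEnd lay above (0.83). The 1 peak of each nEnd library lay from +11.1 to +16.1 and +10.7 to +16.2 kb, at the start of the neighbouring gene Aatf.

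**Figure D3:**
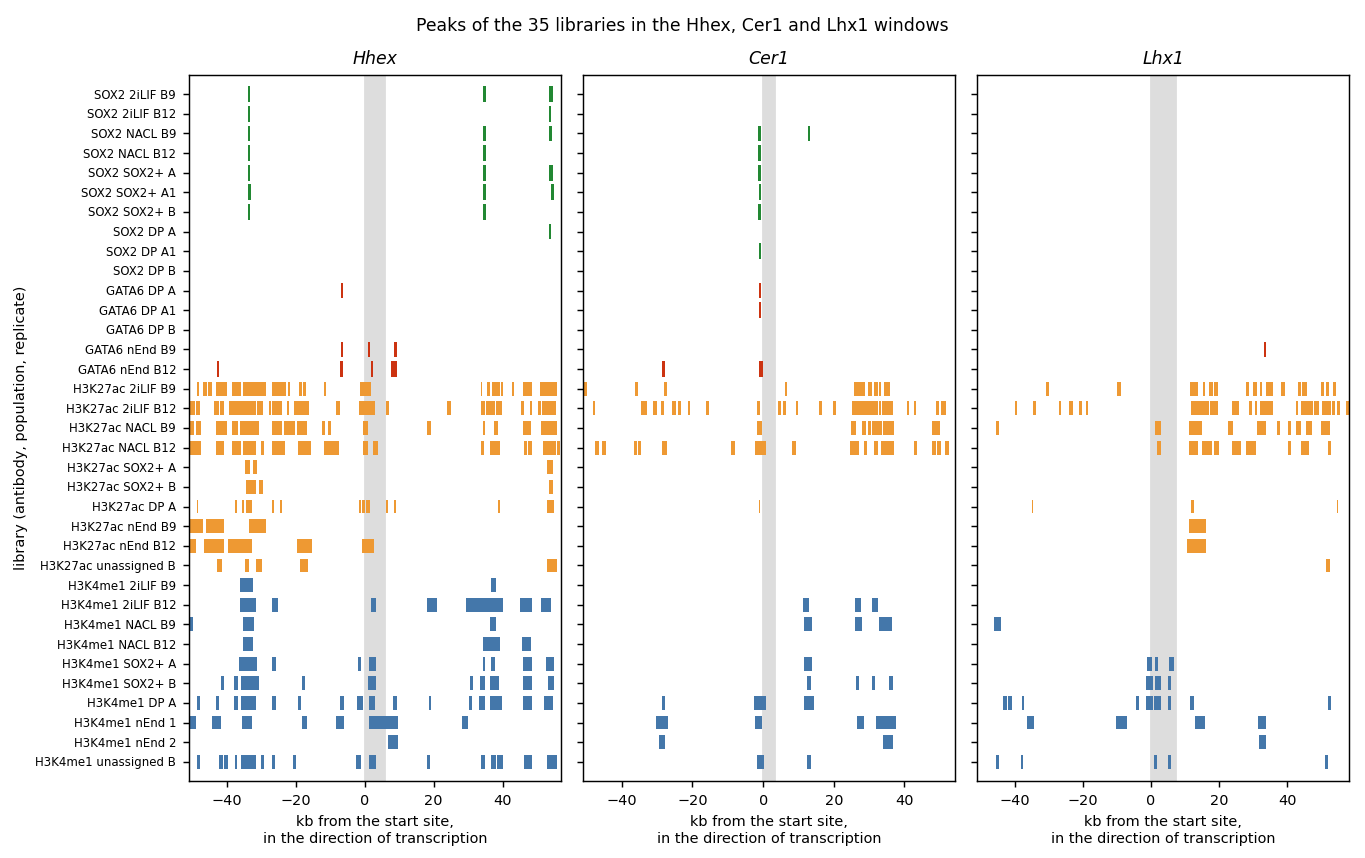
Peaks of all 35 libraries (rows) in the Hhex, Cer1 and Lhx1 windows, by distance in kb from the start site in the direction of transcription; the grey band is the gene and colours give the antibody. SOX2 of pluripotent cells and GATA6 of nEnd lie apart at Hhex and are nearly missing at Lhx1. At Cer1 the -1.2 kb region has SOX2 of NACL and SOX2+ but not 2iLIF, and GATA6 of nEnd B12 but not B9.

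Side by side, the 4 genes took different forms. GATA6 was in both nEnd libraries at 6 regions of Dkk1, 2 of Hhex and none of Cer1 and Lhx1, while nEnd B12 by itself had 8, 5, 3 and 0, and nEnd B9 by itself 6, 3, 0 and 1. This order holds for 50 kb on each side: with 20 kb there was 1 such region at Dkk1 and 2 at Hhex, and with 100 kb there were 10 at Dkk1, 14 at Hhex and 4 at Lhx1. SOX2 was in all 7 pluripotent libraries at 2 regions of Dkk1, 1 of Hhex and none of Cer1 and Lhx1; 25.4% of genes have such a region. The nEnd peaks at the 6 Dkk1 regions were above 72.5% to 99.1% of their lists and those at the 2 Hhex regions above 0.714% to 85.6%, so the ranges overlap, and in nEnd B12 Hhex +8.8 kb (85.6%) ranked above Dkk1 +22.8 kb (80.4%).

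**Figure D4:**
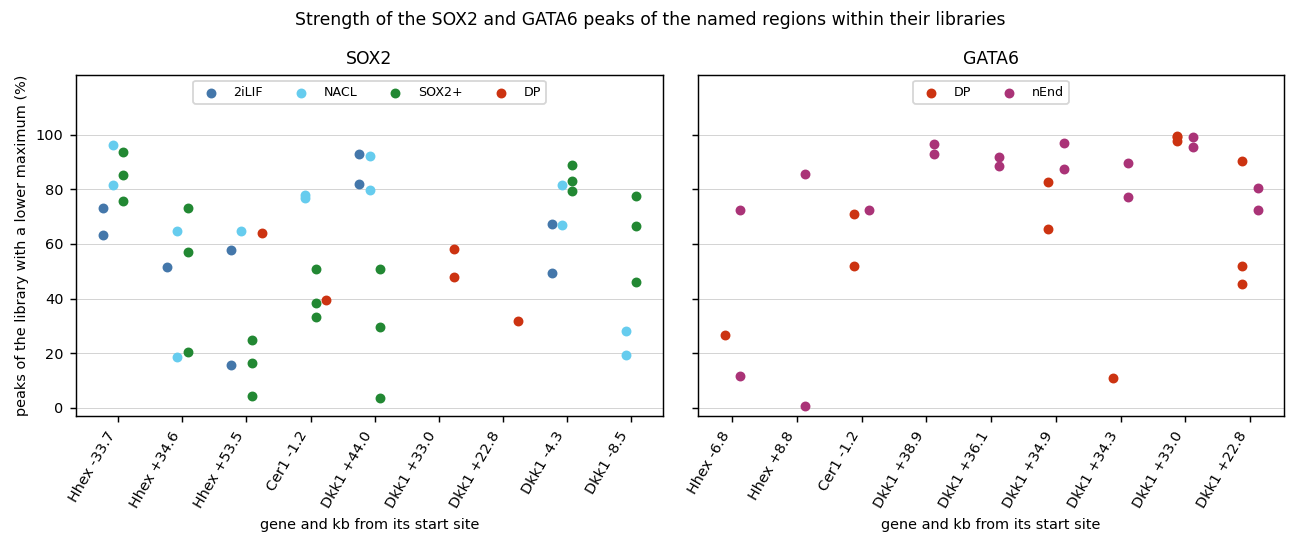
Share (%) of peaks of the same library with a lower maximum, for the SOX2 (left) and GATA6 (right) peaks of the 15 regions with peaks in at least 2 libraries of 1 antibody and population; each point is a peak in 1 library, coloured by population. The GATA6 peaks of DP at Dkk1 +33.0 kb lie between 97.6% and 99.6%, and the SOX2 peaks of DP at the same region at 47.8% and 58.1%.

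Another 12 genes of anterior endoderm and its patterning (Otx2, Foxa2, Gsc, Lefty1, Eomes, Sfrp1, Sfrp5, Hesx1, Shisa2, Frzb, Prdm1 and Fzd5) gave a mixed pattern. For GATA6, 11 had a peak, 4 of them had more coverage in both nEnd libraries than in any DP library (Foxa2, Lefty1, Sfrp5 and Prdm1) and 1 had less, Gsc; their median difference was 1.88, against 0.75 over all genes, of which 45.2% had more and 6.58% less. For H3K27ac, 4 of 12 had more coverage in nEnd than in naive media (Foxa2, Lefty1, Eomes and Sfrp5) and 3 less (Gsc, Sfrp1 and Prdm1), with a median difference of 0.44 against 0.25; over all genes 42.6% had more and 32.9% less, so neither count stands above that of any genes. For H3K4me1, Foxa2 alone had more, and Gsc, Sfrp1 and Prdm1 less, against 23.7% and 16.3% of all genes. Foxa2, a forkhead factor of endoderm, had GATA6 relative coverage of 14.40 and 16.71 in nEnd and 0 in all 3 DP libraries. For Gsc, a homeobox gene of the organizer, GATA6 was 3.94 to 15.81 in DP and 0.77 and 0.88 in nEnd, which was not recomputed at equal peak numbers. For SOX2, 1 of 11 was below all pluripotent libraries in DP, Lefty1, and none above, against 9.1% and 4.63% of all genes. Against SOX2+ cells, 3 of 10 were below, Otx2, Gsc and Lefty1, against 23.1% of all genes.

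Over the 33 assigned libraries, the genes whose relative coverage was most like that of Dkk1 (Pearson's r of the log2 values after adding 0.5) were Lrpap1 (0.90), Pdgfra (0.89), a receptor gene of primitive endoderm, and Vps25 (0.89). For Hhex they were Crebl2, Wdr62 and Angptl4 (0.86, 0.85 and 0.84), for Cer1 Cyp2j11, Gm4756 and Slc40a1 (0.76, 0.75 and 0.73), and for Lhx1 Col9a3, Samd15 and Calhm4 (0.89, 0.88 and 0.87). The points share antibodies and list lengths, and for Lhx1 most SOX2 and GATA6 values are 0.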

How the data were processed

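CUT&RUN peak lists of 35 libraries were used; the 18 IgG samples served as controls for peak calling. Per the submitters' processing notes, the tools were cutadapt 1.18, Bowtie2 2.3.4.1, SAMtools 1.9, Picard 2.9.1, bedtools 2.27.1, deepTools 3.2.0 and SEACR, on mm10. The authors called peaks for each library against IgG. The deposited total and maximum signal is whole-number coverage on each library's own scale. By their names the histone lists are SEACR relaxed calls and the factor lists stringent ones, while the methods state the reverse.

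Gene models were those of GENCODE M21, and RefSeq's GRCm38.p6 gave the sequence (Python 3.11.15, pysam 0.24.0). SOX2 and GATA6 peaks were merged where they overlapped by at least 1 bp. Relative coverage of all 21911 windows was compared with two-sided exact permutation tests over libraries, where p is 2 times the smaller tail, and adjusted by Benjamini-Hochberg over genes with a peak in the contrast, with a threshold of 0.05. Groups were called apart where they did not overlap. The code was tested on simulated peaks. Replicates are clones for most libraries in 2iLIF, NACL and nEnd; the others are not said to be separate cultures, so their p-values measure only the spread between these libraries. All 4 genes were named, and regions were named where at least 2 libraries of 1 antibody and population had a peak; members and lists were chosen with earlier results of these data known. Alternatives were equal peak numbers, the stronger 50% of peaks, numbers of peaks, 20 or 100 kb on each side, a 50% overlap, blocks and each library left out.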

Additional observations from a re-analysis of the deposited data

Results flagged for a closer look

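In the 4 naive-medium H3K4me1 libraries, NACL B9 stood apart at Lhx1, with a relative coverage of 0.62 where the other 3 were at 0. Dixon's criterion was applied in 11 groups of 4 or 7 libraries, where chance is taken to mark about 1 group in 20. That rate does not hold here, because with the other 3 tied at 0 any value above 0 would stand apart. The value comes from a single peak that was stronger than 2.58% of its list.

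The 2 libraries of experiment B whose labels name both DP and SOX2+ entered no comparison and held more than 3 peaks in several windows. The H3K27ac library had 5 peaks at Hhex. The H3K4me1 library had 16 peaks at Hhex, 7 at Dkk1 and 5 at Lhx1.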

How the results depend on the processing

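Counts of the 4 genes whose groups did not overlap changed as follows. Over all genes the shares above and below were 45.2% and 6.58% for GATA6, 42.6% and 32.9% for H3K27ac, 23.7% and 16.3% for H3K4me1, and for SOX2 4.63% and 9.1% against pluripotent and 6.83% and 23.1% against SOX2+ cells. GATA6 in nEnd against DP separated 2, which became 0 with equal peak numbers 1 with the stronger 50% of peaks and 3 with 100 kb (Lhx1 below; leaving out each library, 2 to 3). H3K27ac in nEnd against naive media separated 3, and 1, Dkk1, with equal peak numbers (left out, 3 to 4). It separated 4 with the stronger 50% (Hhex below) and with 100 kb (Hhex above), and 3 with numbers of peaks (Hhex for Lhx1) and with 20 kb (Lhx1 above). H3K4me1 separated 2, and 1 with the stronger 50% (Dkk1) or with numbers of peaks (Lhx1; left out, 2 to 3); with 20 kb the 2 were Hhex and Dkk1, with Lhx1 lost, and with 100 kb Hhex made 3. SOX2 in DP against pluripotent cells separated 0, and 1 without DP A, DP A1 or NACL B12 (left out, 0 to 1). SOX2 in DP against SOX2+ separated 1, and 0 with equal peak numbers, the stronger 50%, numbers of peaks or 20 kb (left out, 1 to 3, with 3 without DP A1). The 8 regions with GATA6 in both nEnd libraries became 3 with 20 kb (Hhex 2, Dkk1 1), 28 with 100 kb (Hhex 14, Dkk1 10, Lhx1 4) and 10 to 16 when a library was left out (16 without nEnd B9). The 1 DP region with both factors became 0 with 20 kb and 0 to 1 with a library left out.

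Signs turned, as differences of mean relative coverage, for Dkk1 in GATA6 (6.98 with equal peak numbers) and SOX2 (0.28 with numbers of peaks against pluripotent cells, and 0.11 and 0.44 without DP B against pluripotent and SOX2+ cells, where leaving out other libraries gave values down to -3.85 and -3.51), and for Lhx1 in GATA6 (-3.45 with 100 kb) and H3K27ac (0.02 with equal numbers, 0.83 with 20 kb). For Hhex they turned in H3K27ac (-0.41 with equal numbers, -2.22 with the stronger 50%, against 3.25 with numbers of peaks and 1.67 with 100 kb) and H3K4me1 (0.05 with numbers of peaks, 2.86 with 20 kb, 2.36 with 100 kb, 0.63 without nEnd 2, and down to -1.59 without other libraries). For Cer1 they turned in H3K4me1 (-0.14 with 20 kb) and SOX2 (-0.86 and -0.64 with the stronger 50% against pluripotent and SOX2+ cells, -0.13 with numbers of peaks, -1.05 and -1.40 without DP A1, -0.03 without SOX2+ A1, and up to 1.23 and 0.89 without other libraries). The cause was not tested.

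With the replicate block, the counts were 3 for H3K27ac by clone and 1 for SOX2 in DP against SOX2+ by experiment, so the pairing changed no call. Deviations of DP and SOX2+ SOX2 libraries of the same experiment correlated at 0.02 to 0.03 over genes, below the limit for pairing. Short DP lists limit what can be missing: 1378 peaks for SOX2 and 1391 for GATA6.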
